A study of Octopus bimaculoides with 6 samples.

Results

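The arm analysed here is left arm 1 (L1) of a single adult male *Octopus bimaculoides*, the California two-spot octopus. RNA was sequenced from 3 transverse sections of it, which the labels name distal, medial and proximal and place at 1.5, 3.5 and 5.5 cm from the tip. These are 3 of the 6 libraries of the series, chosen by their labels. The other 3 are the L1 arm tip, taken up to 1.5 cm, of another adult male (OB2) and of an adult female (OB9), and a whole hatchling at 30 days post fertilization. The adults were wild-caught and euthanised in ethanol, and the hatchling was anaesthetised and flash frozen. There was no treatment, and each section held skin, sucker, muscle and nerve together. Each position is 1 library of 1 arm, so there is no replicate and no p-value is given. The intervals below cover the counting error of the reads only, and differences between positions cannot be told apart from differences between dissections or libraries.

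An octopus arm is a muscular hydrostat, a limb with no skeleton in which muscle bundles surround an axial nerve cord that runs from base to tip. Suckers, each with its own ganglion and sensory epithelium, become smaller and more closely set towards the tip. The arm grows from its tip throughout life and regrows after loss. A graded transcript would be expected to change by steps in the same direction from one section to the next, whereas a transcript tied to the tip region would change between distal and medial and then stay level.

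Levels were expressed as length-normalised shares of the transcript pool (TPM), recomputed over the protein-coding transcripts alone and called coding TPM. Of 38556 coding transcripts, 9845 had a mean of at least 10 coding TPM over the 3 sections and at least 100 estimated counts in all, and were followed. Each has 2 steps, medial over distal and proximal over medial, given as log2 ratios of coding TPM + 1. A step counted as a change at 1.5-fold or more (0.58 on the log2 scale) and as level below 0.32 on the log2 scale. The distal library was the shallowest, with 2812216 estimated counts on coding transcripts against 6085753 for the medial and 6165829 for the proximal one. The distal library also stood apart in the length that Kallisto subtracts to get a transcript's effective length, with a median of 179 bases against 214 (medial) and 213 (proximal), and in its share of counts on coding transcripts, with 89.0% against 95.5% and 94.5%. The part of these library properties in the results below was not tested.

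Ordered change along the arm was rare. Only 18 transcripts (0.183% of those followed) rose by 1.5-fold or more at both steps from distal to proximal, and 24 (0.244%) fell at both. By contrast, 1805 transcripts (18.3%) changed between the distal and medial sections and were then level, while 111 (1.13%) changed between the medial and proximal sections alone, 43 of them up (0.437%) and 68 down (0.691%). A further 70 (0.711%) peaked in the medial section, and 241 (2.45%) were lowest there. The first step reached 1.5-fold in 2959 transcripts (30.1%), and the second step in 555 (5.64%). Both steps span 2 cm of arm. Of the 677 transcripts (6.88%) that rose at the first step, 18 rose again at the second and 432 stayed level. Of the 2282 (23.2%) that fell at the first step, 24 fell again and 1373 stayed level. Among all 9845 followed transcripts, 352 rose and 203 fell at the second step, so few changed there in either direction. Both steps use the medial library, so an error in it shifts them in opposite directions. Whether repeated changes were rarer than unrelated steps would give was not tested.

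**Figure D1:**
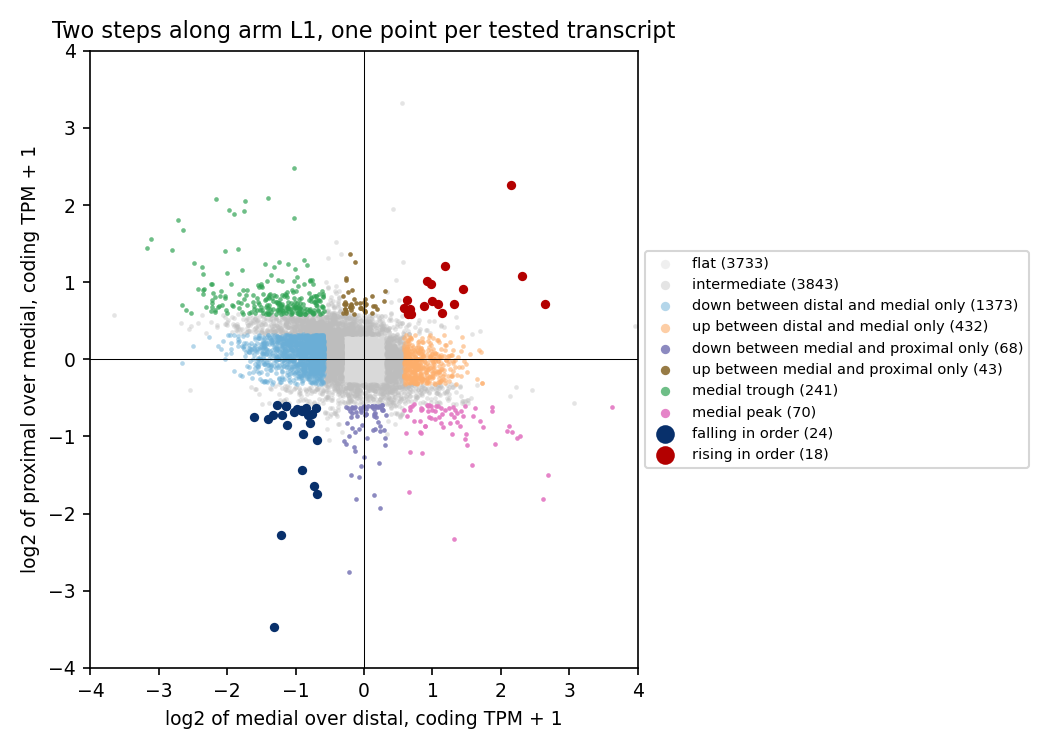
Each point is a coding transcript, with the log2 ratio of medial over distal coding TPM + 1 on the x axis and that of proximal over medial on the y axis, coloured by class, and points beyond 4 on either axis lie outside the frame. Transcripts that rose (18) or fell (24) in order occupy the upper right and lower left, while most of the spread runs along the x axis.

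The rarity of ordered change held under each way of scaling the libraries, but the balance of up and down did not. On coding TPM the median first step of all followed transcripts was -0.21 and the median second step 0.06, so a level transcript sits slightly below 0 at the first step. Of the breaks between distal and medial, 432 (4.39%) were up and 1373 (13.9%) down. With both steps centred on their medians there were 812 up and 826 down, with TMM scaling 1353 up and 525 down, and with the deposited TPM, which include the non-coding RNAs, 2573 up and 256 down. No direction is therefore read from the total numbers of breaks. Under these scalings the ordered transcripts numbered 51, 40 and 20. The classes were also compared under 4 scalings (TMM, median-of-ratios, omission of the 10 most abundant transcripts, and centred steps), and the class members named below stayed in their class under all 4 unless another number is given. Over whole classes, 14 of the 18 risers, 12 of the 24 fallers, all 70 medial peaks, 388 of the 432 breaks up, 477 of the 1373 breaks down and 143 of the 241 troughs did so under all 4. With the deposited TPM, 6 of the 18 risers, 4 of the 24 fallers and 155 of the 1373 breaks down kept their class.

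**Figure D2:**
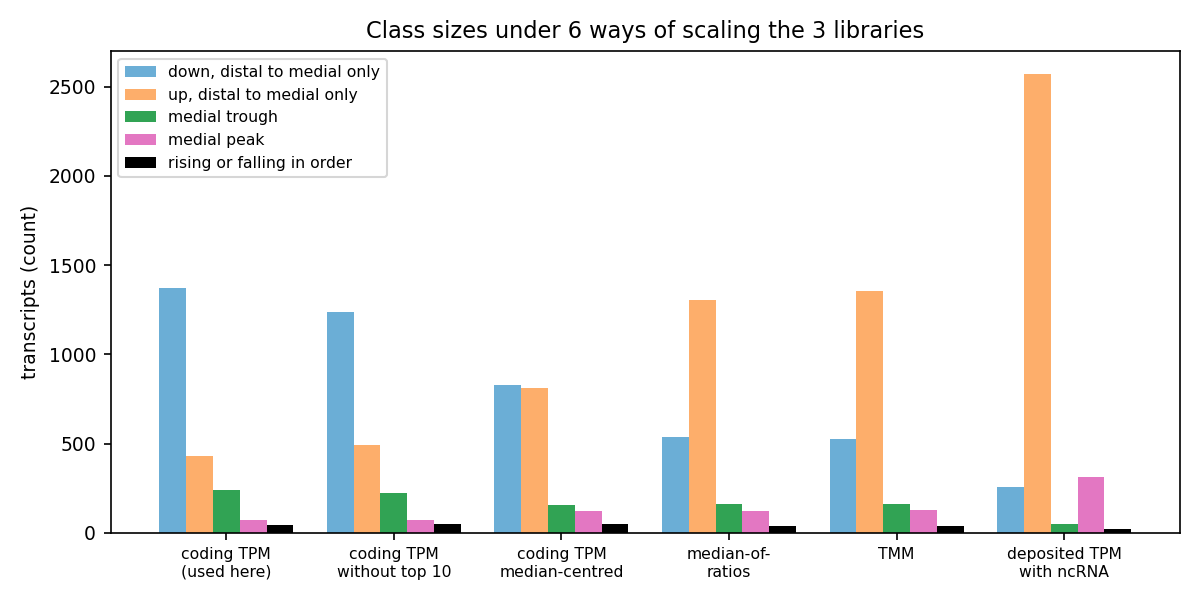
Bars give the number of transcripts (y axis) in 5 patterns under 6 ways of scaling the 3 libraries (x axis). The black bars, transcripts that changed in order, lie between 20 and 51, while the breaks down between distal and medial go between 1373 and 256.

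None of the 18 risers carries a name in the annotation used here, so they are given by their identifiers. The transcript with the largest ordered rise was Ocbimv22034579m, with 11.7, 55.3 and 267.6 coding TPM from distal to proximal. Its steps were 2.15 (95% interval 1.57 to 2.94) and 2.25 (2.07 to 2.48), which are similar in size, so it climbed evenly over the 3 positions. It stood at 43.8 in tip OB2, 18.3 in tip OB9 and 3.71 in the hatchling, all below the proximal section. Ocbimv22011367m followed the same even course at a lower level, with 3.80, 9.92 and 24.3 coding TPM from distal to proximal and steps of 1.18 (0.81 to 2.00) and 1.21 (1.05 to 1.55). Ocbimv22026361m was at 7.24, 14.6 and 30.6, and roughly doubled at each step, with 7.91 in tip OB2, 8.55 in tip OB9 and 11.1 in the hatchling. These 3 transcripts kept their class under all 4 scalings and with the deposited TPM. The faller Ocbimv22011359m, described below, has an identifier close to that of Ocbimv22011367m and went the opposite way. Whether Ocbimv22011359m and Ocbimv22011367m share reads was not tested.

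A group of 3 risers with neighbouring identifiers moved together. Ocbimv22020506m was at 3.16, 19.7 and 42.8 coding TPM from distal to proximal, Ocbimv22020505m at 3.35, 10.9 and 21.3, and Ocbimv22020499m at 1.28, 13.3 and 22.5. Most of their rise was at the first step, with 2.31 (2.02 to 3.33) for Ocbimv22020506m against 1.08 (0.93 to 1.31) at the second. The distal value of Ocbimv22020499m rests on 3 estimated counts, and its first step of 2.64 has an interval of 1.77 to 5.68. All 3 were at 0 in tip OB2, between 41.5 and 61.3 in tip OB9, and between 458 and 800 in the hatchling, where they were far above any arm section. A second pair, Ocbimv22012686m (42.0, 83.5 and 165.7) and Ocbimv22012679m (22.9, 46.6 and 79.1), also rose in order, with both steps close to a doubling in Ocbimv22012686m. The pair was also highest in the hatchling, at 557 and 1007, but was higher in tip OB2 (45.0 and 45.8) than in tip OB9 (10.6 and 10.4), the opposite order to the first group.

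Ocbimv22018637m and Ocbimv22024997m, whose identifiers are far apart, had near-parallel values. Ocbimv22018637m was at 41.2, 104.2 and 172.1 coding TPM from distal to proximal, and Ocbimv22024997m at 40.1, 89.5 and 135.8. Ocbimv22018637m kept its class under all 4 scalings, and Ocbimv22024997m under 1. Tip OB2 held 143.8 and 121.2 of them, tip OB9 604.6 and 524.4, and the hatchling 345.4 and 290.8. Whether near-identical copies share reads in any of these groups was not tested. Over the 18 risers, the arm tips, which the rule did not use, differed by 2-fold or more in 13 (72.2%), against 6.83% of all followed transcripts. The hatchling was at least 2-fold above the proximal section in 8 of the 18 (3.82% of all followed transcripts), a comparison that shares the proximal library with the rule. The 2 risers with the smallest steps, Ocbimv22003043m (74.9, 112.9 and 180.0) and Ocbimv22010247m (21.2, 34.6 and 52.4), had counting intervals that included no change at 1 or both steps, and Ocbimv22010247m kept its class under none of the 4 scalings. Just outside the rule lay Ocbimv22039348m, at 24.3, 36.4 and 88.9 with a smaller step of 0.57.

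**Figure D3:**
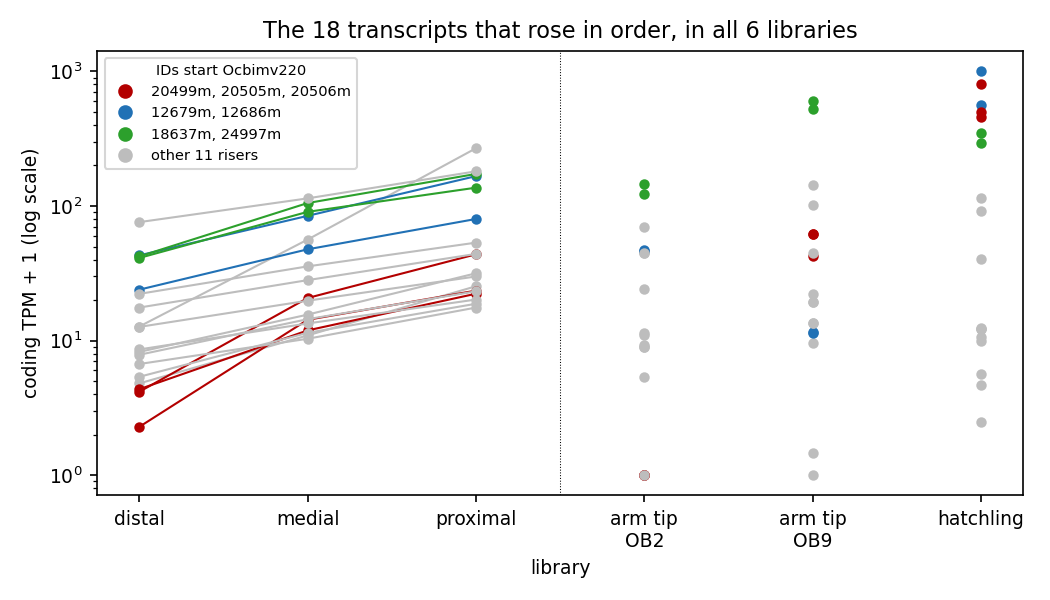
Coding TPM + 1 (y axis, log scale) of the 18 risers in the 3 arm sections, joined by lines, and in the 2 arm tips and the hatchling (x axis). The red group (hatchling 458 to 800) is at 0 in tip OB2, and the blue pair is lower in tip OB9 (10.4 and 10.6) than in tip OB2.

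Among the 24 fallers, 1 is named. Ocbimv22007681m, annotated as tubulin alpha-3 chain, a building block of microtubules that is abundant in axons and cilia, was at 91.1, 53.3 and 32.1 coding TPM from distal to proximal. Its steps were -0.76 (-0.97 to -0.57) and -0.71 (-0.94 to -0.52), so it fell by similar amounts over each interval. It lay at 16.4 in tip OB2, 16.3 in tip OB9 and 24.1 in the hatchling, below all 3 sections of the arm, so the distal section was not like the separately sampled tips for this transcript. It stayed in the falling class under 1 of the 4 scalings. The most abundant faller was the short transcript Ocbimv22014590m, at 367.9, 207.4 and 125.6 with only 32 to 53 estimated counts in each section, and it kept its class under 2 of the 4 scalings.

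The steepest fall was that of Ocbimv22005531m, with 26.4 and 10.1 coding TPM in distal and medial and fewer than 1 estimated count in proximal. The level that 3 counts would give in the proximal library is 0.359 coding TPM. Against that level, the medial section was 28.0-fold higher and the distal section 73.7-fold higher. The proximal estimate is a small fraction of a count, and how reads were divided among transcripts was not tested. Ocbimv22005531m was near 0 in the hatchling and at 6.16 and 5.20 in tips OB2 and OB9. Ocbimv22014175m fell through 41.4, 17.3 and 2.77, with steps of -1.21 (-1.75 to -0.76) and -2.28 (-3.70 to -1.71), and was again high in the hatchling at 44.0. Ocbimv22033761m was at 33.0, 10.1 and 5.63, and Ocbimv22035682m at 40.4, 14.6 and 8.07, both with a larger step between distal and medial than between medial and proximal. These 4 kept their class under all 4 scalings.

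Other falls differed in where the larger step lay. Ocbimv22023810m was at 38.9, 17.4 and 9.21 and kept its class under all 4 scalings. Ocbimv22011359m, at 42.8, 25.3 and 7.45 with steps of -0.74 and -1.64, did so under 1. The identifier of Ocbimv22011359m lies close to that of the riser Ocbimv22011367m, which went the opposite way (3.80, 9.92 and 24.3). Whether these transcripts share reads was not tested. The 24 fallers reached medians of 30.9, 13.3 and 7.00 coding TPM from distal to proximal, and the risers 9.61, 19.2 and 36.7. The arm tips were 2-fold or more apart in 3 of the 24 fallers (12.5%), against 6.83% of all followed transcripts. No 2 of the 24 fallers had identifiers within 10 of each other, while 5 of the 18 risers (27.8%) did. The share was 59.9% for breaks down and 31.7% for breaks up between distal and medial, and 21.4% for peaks and 21.6% for troughs. It was 4.65% and 5.88% for breaks up and down between medial and proximal. Such a share depends on the size of the class, so no contrast between classes is read from it. Just inside the rule was Ocbimv22004255m (33.6, 13.4 and 8.54), and just outside it Ocbimv22013011m (17.4, 9.40 and 5.95, smaller step 0.58 towards lower levels).

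**Figure D4:**
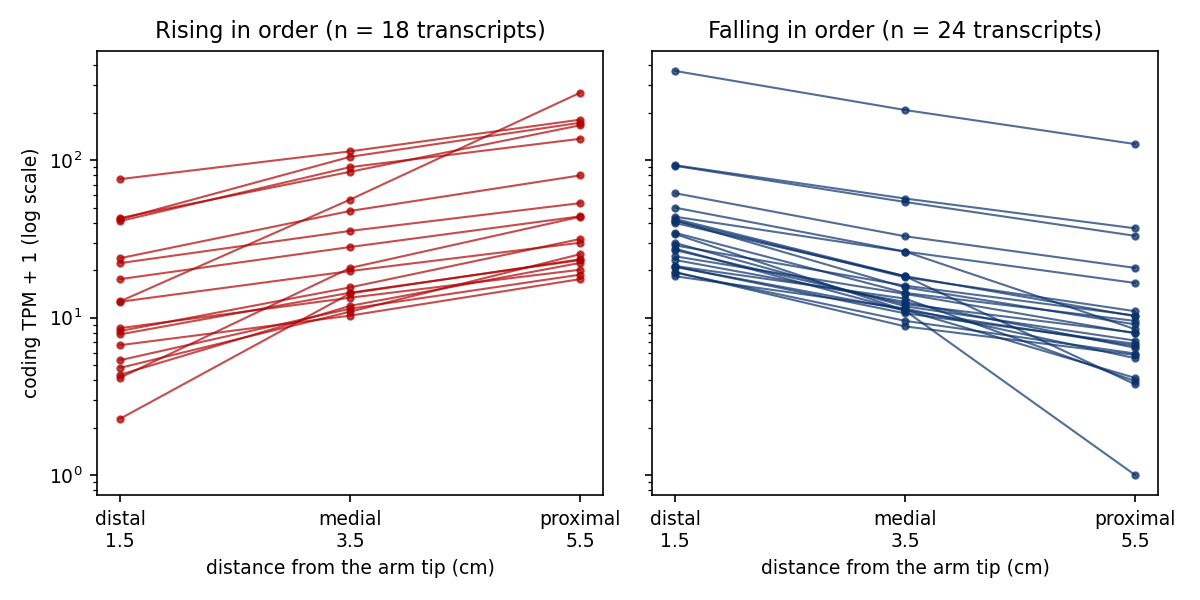
Coding TPM + 1 (y axis, log scale) of the 18 risers and the 24 fallers at the 3 distances from the arm tip (x axis, cm), 1 line per transcript. The line that climbs furthest is Ocbimv22034579m (11.7 to 267.6 coding TPM), and the line that reaches the base of the falling panel is Ocbimv22005531m.

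Among the patterns of change, a drop between distal and medial that went no further held the most named transcripts, 41 of its 1373. That is close to the share in all followed transcripts, 232 of 9845. Of 27 listed transcripts of neurons and synapses, 19 were followed, bearing 14 names, and 15 of them (78.9%, against 23.2% of all followed transcripts) were lower in the medial than in the distal section by 1.5-fold or more. The median first step of the list was -1.05, against -0.21 for all followed transcripts, and its median second step was 0.03, against 0.06. None rose or fell in order, 11 were level after the drop and 1, piccolo, was lowest in the medial section. The median first step stayed below 0 under each scaling (-0.71 with TMM, where that of all transcripts was 0.14, and -0.35 with the deposited TPM, where that of all was 0.46), although the number past 1.5-fold went down to 11 and 6. Summed over all 27, the list came to 1449, 664 and 693 coding TPM from distal to proximal, against 960 in tip OB2, 950 in tip OB9 and 680 in the hatchling. In bulk tissue, fewer neurons and less of these RNAs per neuron cannot be told apart.

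Several of the transcripts that dropped encode proteins of transmitter release. Synaptotagmin-1 (Ocbimv22021175m), the calcium sensor of synaptic vesicles, was at 271.9, 85.1 and 83.7 coding TPM from distal to proximal, with steps of -1.66 (-1.81 to -1.54) and -0.02 (-0.17 to 0.13). Complexin (Ocbimv22018680m), which clamps the vesicle fusion complex, was at 327.8, 125.7 and 120.0, with steps of -1.38 (-1.62 to -1.14) and -0.07 (-0.32 to 0.19). In each the medial and proximal sections were indistinguishable within counting error, while the distal section was clearly higher. Another synaptotagmin-1 transcript (Ocbimv22021174m) was at 56.8, 29.6 and 21.0, with a second step of -0.48 (-0.86 to -0.14), so it was lower again in the proximal section. The transcripts of synaptotagmin-11, a member of the family that does not bind calcium, were at 160.6, 53.2 and 57.2 (Ocbimv22002124m) and at 64.0, 26.3 and 25.0 (Ocbimv22002123m), and synaptotagmin-12 (Ocbimv22021168m) at 22.0, 7.21 and 7.37.

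Other neural transcripts, from neuropeptides to channels and receptors, also dropped at the first step. The FMRFamide neuropeptide precursor (Ocbimv22001324m), which yields peptides that act on molluscan muscle and chromatophores, was at 87.4, 30.5 and 25.0 coding TPM. ERC1 (Ocbimv22007157m), a scaffold of the presynaptic active zone, was at 31.6, 13.7 and 16.6, and piccolo (Ocbimv22016351m), another active-zone scaffold, at 27.1, 5.65 and 9.85, rising again at the second step (0.71, 0.44 to 1.17). The transcripts of the delayed-rectifier potassium channel Shab were at 29.7, 14.0 and 13.7 (Ocbimv22003885m) and at 26.7, 11.9 and 14.9 (Ocbimv22003886m), and the inhibitory glycine receptor GLRA1 (Ocbimv22000512m) at 16.5, 8.58 and 8.30. FMRFamide kept its class under 3 of the 4 scalings and GLRA1 under 2, and the others under all 4. Transcripts with neighbouring identifiers and the same name may belong to 1 gene, so they are not separate instances.

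Not every neural transcript took part, and the tips did not match the distal section throughout. ERC2 (Ocbimv22007158m), next to ERC1 in the numbering, was at 22.1, 27.2 and 23.3, and of the glycine transporters SLC6A9 (Ocbimv22000955m) was level at 72.6, 71.9 and 80.0, while SLC6A9 (Ocbimv22000956m) was at 17.6, 7.98 and 7.35. The calcium-activated potassium channel slo-1 (Ocbimv22039045m) was at 28.3, 21.8 and 22.8. In the arm tips piccolo (Ocbimv22016351m) was above the distal section, at 54.9 in OB2 and 53.0 in OB9, whereas synaptotagmin-1 (Ocbimv22021175m), at 58.1 and 71.9, and FMRFamide (Ocbimv22001324m), at 15.5 and 21.4, were below even the proximal section. The high synaptotagmin-1 and FMRFamide of the distal section was thus not seen in the other animals' tips.

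**Figure D5:**
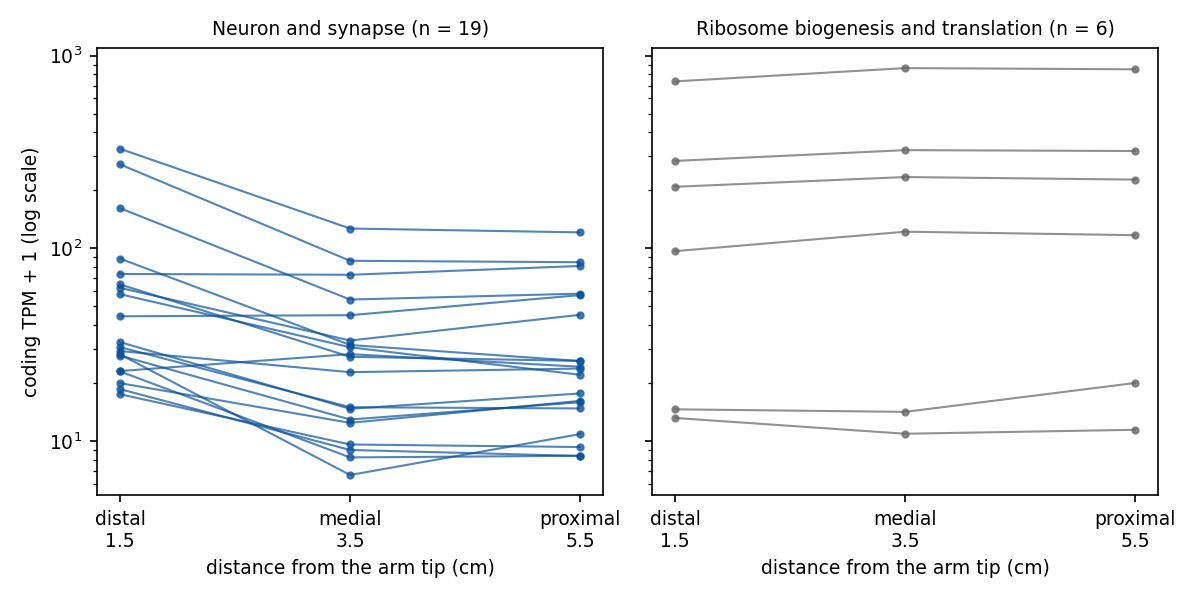
Coding TPM + 1 (y axis, log scale) at the 3 distances from the arm tip (x axis, cm) for the followed transcripts of the neuron and synapse list (19) and of the ribosome biogenesis and translation list (6), 1 line per transcript. Most neural lines drop between distal and medial and run level after it, while no line of the ribosome list changes by 1.5-fold on this scale.

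The comparison lists showed no ordered change beyond tubulin alpha-3 either. In the muscle and cytoskeleton list, 7 of 15 transcripts were followed and 4 (57.1%, against 23.2% of all followed transcripts) dropped by 1.5-fold or more at the first step. The list median was -0.76, against -0.21 for all. With TMM scaling 3 of the 7 dropped and 1 rose, and with the deposited TPM 1 dropped and 1 rose. The 4 include myosin-IIIb and MYO3A (Ocbimv22021833m), whose identifiers are close. Myosin-IIIb (Ocbimv22021831m), an unconventional myosin that moves along actin protrusions, was at 34.5, 11.4 and 11.7 coding TPM, and agrin (Ocbimv22005418m), a matrix protein of nerve-muscle contacts in vertebrates, at 86.0, 38.7 and 56.5. Another agrin transcript (Ocbimv22005419m) went the other way at the second step, at 26.8, 18.1 and 9.23 with steps of -0.55 and -0.90, just short of the rule for an ordered fall. Calmodulin (Ocbimv22007343m) was at 486.5, 644.4 and 612.9, in the other direction. The actin transcripts of the list are absent or nearly so from the arm, with actin-1 (Ocbimv22004268m) at 1.24, 1.28 and 2.11 in the sections against 183.7 in the hatchling, and the 2 other actin transcripts were at or near 0. The summed list was at 881, 834 and 808 coding TPM.

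Transcripts of ribosome biogenesis and translation changed little on coding TPM, and 4 of the 6 followed were level at both steps. The ribosomal protein RPS20 (Ocbimv22005123m), at 734.7, 861.5 and 849.2, was level at both steps. The nucleolar protein NOP58 (Ocbimv22004997m) was at 13.6, 13.2 and 19.0, with a second step of 0.50 (0.20 to 0.88). None of the 6 changed by 1.5-fold, with a median first step of 0.18, but with TMM scaling 2 of them and with the deposited TPM 4 were higher in medial than in distal by 1.5-fold or more. Of the 8 listed transcripts of dividing cells, 3 were followed, and none changed by 1.5-fold: the condensin subunit NCAPD3 (Ocbimv22004418m) was at 14.4, 10.1 and 10.8, and the kinetochore protein SKA2 (Ocbimv22007494m) at 36.1, 34.7 and 38.6. None of the 12 listed transcripts of cilia was abundant enough to be followed.

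Transcription factors and receptors that pattern limbs and other axes gave no ordered member. Of 14 listed developmental transcription factors only 3 were followed, and none changed by 1.5-fold on coding TPM. Mohawk (MKX, Ocbimv22006483m), a homeobox factor of vertebrate tendon and muscle, was at 47.9, 46.4 and 63.0 coding TPM, and KLF6 (Ocbimv22007603m), a zinc-finger factor, at 43.7, 49.1 and 58.4. JUN (Ocbimv22005044m), a subunit of the AP-1 factor, was at 65.2, 88.3 and 78.1. The other 11 were below the limits on level or counts, among them TBX2 (Ocbimv22029974m), a T-box factor of limb patterning in vertebrates, at 1.98, 0.488 and 0.0846, where the depth cannot show an order. Of 11 listed signalling receptors 4 were followed, and NOTCH2 (Ocbimv22021823m), a receptor of cell-contact signalling, was at 93.8, 45.5 and 59.3, the 1 drop of 1.5-fold among them. This NOTCH2 transcript has only 384 bases. The Notch transcript Ocbimv22021827m, with a close identifier and 11029 bases, was level at 71.2, 58.7 and 66.4. The Wnt receptor FZD10 (Ocbimv22037630m) was level at 44.3, 40.2 and 41.0.

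No followed transcript of the lists that write, read or erase DNA and histone marks changed in order, and most first steps were below 1.5-fold. Of 23 followed in the histone methylation list, 6 (26.1%) dropped by 1.5-fold or more at the first step, against 23.2% of all. With TMM scaling 3 of them dropped and 3 rose. The H3K36 demethylase KDM8 (Ocbimv22033383m) was at 25.1, 12.0 and 9.50 coding TPM and kept its class under 1 of the 4 scalings. Among other entries of that name, KDM8.2 (Ocbimv22032520m) was level at 13.2, 12.9 and 15.8. KDM8.1 (Ocbimv22032519m), at 17.7, 5.66 and 5.13, was below the limit on level. Of 43 followed transcripts of the extended list of histone methyltransferases, 12 (27.9%) were lower in medial than in distal by 1.5-fold or more and none was higher, against 23.2% and 6.88% of all followed transcripts. The median first step was -0.40. SETMAR.18 (Ocbimv22015562m) was at 81.6, 47.1 and 50.6 coding TPM, and the H3K36 methyltransferase NSD1 (Ocbimv22033794m) at 20.5, 10.9 and 12.7. The SETMAR name is that of a human protein that pairs a histone methyltransferase domain with a transposase. Whether the octopus transcript encodes either domain was not tested. SETMAR.18 kept its class under 1 of the 4 scalings and NSD1 under 2. With TMM scaling 2 of the 43 were lower and 3 higher, so the direction of this list depends on the scaling. The H3K4 demethylase KDM5A (Ocbimv22005773m), at 22.7, 11.3 and 18.3, was lowest in the medial section under all 4 scalings, and the acetyltransferase KAT7 (Ocbimv22034128m), at 13.6, 6.64 and 10.5, under 1 of them. The more abundant KDM5A.1 (Ocbimv22005774m) was at 47.0, 29.5 and 37.7, and its second step of 0.34 was too small for that class. All 6 followed members of the DNA methylation list, which has 12, were lower in medial than in distal on coding TPM, 2 of them by 1.5-fold or more. The shares of all followed transcripts were 66.5% and 23.2%. With TMM scaling 4 of 6 were lower and none by 1.5-fold. With a limit of at least 1 TPM in any section, 10 of the 12 were lower. UHRF1 (Ocbimv22021185m), below the limit on level used here, was not lower, at 6.27, 7.31 and 7.34.

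The transcripts with the largest first steps carry no name in the annotation tables used here, which name only 232 of the followed transcripts. Ocbimv22017312m had no read in the distal section, 609.1 coding TPM at the medial and 681.0 at the proximal position, and was also at 0 in both arm tips and the hatchling. Against 3 counts in the distal library (8.19 coding TPM) the medial section was at least 74.4-fold higher. It is a transcript of 285 bases that was present in these 2 sections of the animal alone among the 6 libraries. Ocbimv22008850m had fewer than 1 estimated count in the distal section and 23.8 and 21.4 coding TPM in the medial and proximal. Against 3 counts in the distal library (0.797 coding TPM) the medial section was 29.8-fold higher. The distal estimate is a small fraction of a count, and how reads were divided among transcripts was not tested. Ocbimv22008850m was at 13.7 in the hatchling, 3.91 in tip OB9 and 0 in tip OB2, and lost its class with the deposited TPM. Among named transcripts, Sec31A (Ocbimv22005776m), a coat protein of vesicles leaving the endoplasmic reticulum, was at 10.9, 25.8 and 20.6, but stayed in its class under 1 scaling.

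In the other direction, Ocbimv22017943m was at 45.4, 7.21 and 8.28 coding TPM and Ocbimv22018198m at 267.2, 60.3 and 68.0. Both were intermediate in the arm tips, at 27.2 in OB2 and 20.6 in OB9 for Ocbimv22017943m and at 123.9 and 115.0 for Ocbimv22018198m. By contrast Ocbimv22002924m, at 142.4, 32.8 and 35.9 in the sections, was lower in the tips than in any section, at 14.4 and 23.3. The redox-regulatory protein FAM213A (Ocbimv22031184m), an antioxidant protein, was at 746.1, 366.4 and 342.1, and below all of these in tips OB2 (252.8) and OB9 (255.5). SCAI (Ocbimv22021848m), a repressor of actin-dependent transcription in mammals, was at 27.3, 7.72 and 8.43. All of these transcripts kept their class under each of the 4 scalings.

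Medial peaks and troughs returned towards their distal level to differing extents. The peak transcript Ocbimv22024965m was at 8.07, 26.0 and 9.44 coding TPM, with steps of 1.57 (1.37 to 2.01) and -1.37 (-1.67 to -1.25). Ocbimv22008301m, of 408 bases, was at 34.4, 217.2 and 61.0, so that the proximal section stayed above the distal, and was low in the arm tips at 7.36 in OB2 and 4.63 in OB9. The most abundant trough, Ocbimv22007954m, was at 8056, 2051 and 7814, so that the medial section alone was low, and reached 14736 and 7806 in tips OB2 and OB9. It kept its class under the 3 scalings that include it, being 1 of the 10 most abundant transcripts. Ocbimv22013959m (20.9, 3.90 and 19.6) and Ocbimv22036964m (14.5, 3.61 and 16.5) had the same form at low levels.

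Classes differed in transcript length. No class rule set a limit on length, but length enters coding TPM through the effective length of each library. The limit on counts also depends on length, since at equal coding TPM a longer transcript has more counts. The classes are therefore not independent of length. The median length was 783 bases for medial peaks, 886.5 for breaks up between distal and medial, 1305 for troughs, 1516 for risers, 1788 for breaks down and 1868 for fallers, against 1637 for all followed transcripts. Among transcripts under 500 bases 11.3% broke up between distal and medial and 9.38% down, and among those of 4000 bases or more 2.10% and 15.9%. The median first step went with length from 0.09 in the shortest to -0.33 in the longest, alongside the effective-length difference between the distal and the other libraries given above. Ordered transcripts were too few for a trend with length, with 2 risers in the shortest and 2 in the longest group. With transcripts of at least 1000 bases only, 13 rose and 18 fell in order.

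The arm tips and the hatchling were not used to set the classes. The breaks down between distal and medial were above the hatchling in both arm tips in 1023 of 1373 cases (74.5%), and the medial troughs in 202 of 241 (83.8%), against 53.1% of all followed transcripts. Of the breaks up, 98 of 432 (22.7%) were. For the ordered classes the counts were 9 of 24 fallers (37.5%) and 4 of 18 risers (22.2%). The median log2 ratio of tip OB2 over the hatchling was 0.68 for the breaks down, -1.02 for the breaks up, -0.24 for the fallers and -1.22 for the risers, and 0.18 for all followed transcripts. That of tip OB9 over the hatchling was 0.80 for the breaks down, -0.56 for the breaks up, -0.08 for the fallers and -0.10 for the risers, and 0.41 for all. In these libraries, the breaks down between distal and medial were thus above the hatchling in both tips in a larger share than all followed transcripts. The 24 fallers and 18 risers are too few for such a reading. Tips and hatchling differ in animal, age and tissue sampled at once, so the source of these shares cannot be told apart.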

How the data were processed

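Total RNA of 3 sections of arm L1, 2 arm tips and 1 hatchling had been sequenced after ribosomal RNA depletion (Ribo-Zero) as 150 bp paired-end reads. Per the labels and methods, the authors checked reads with FastQC 0.11.5, trimmed them with Trimmomatic 0.36 (and Fastp for the hatchling) and pseudo-aligned them with Kallisto and its bias correction to published transcript models. For 40327 targets the deposited files give the estimated count and the TPM that Kallisto computed, beside full and effective lengths. The deposited TPM include non-coding RNAs.

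From the estimated counts, coding TPM were recomputed over the 38556 Ocbimv targets as count over effective length, scaled to a sum of 1000000. Transcripts with a mean of at least 10 coding TPM and at least 100 counts over the sections were followed, with a pseudocount of 1. Intervals are exact 95% Clopper-Pearson intervals on the ratio of counts, without the pseudocount, and cover counting error only. Where a section had no read or a small fraction of an estimated count, a fold was computed against 3 counts in that library. With 1 library a position no model was fitted, and edgeR 4.0.16 gave only TMM factors from rounded estimated counts. Classification was tested on simulated data.

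Names come from the part of the study's annotation tables used here, which lists 561 transcripts, 232 of them followed, so a transcript without a name here may have one in the study. Named by rule were the 10 risers and 10 fallers with the largest smaller step, the 5 leaders of the breaks up and down between distal and medial, of the peaks and of the troughs whose intervals excluded no change, and annotated transcripts in a class or list; a selection of these is described. The transcripts on each side of the threshold and the parallel pair were picked after their values were seen. The members and lists were chosen with earlier results of these data known.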

Additional observations from a re-analysis of the deposited data

Results flagged for a closer look

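Signal outside the coding transcripts also differed along the arm. Of 1771 non-coding RNA targets, 78 passed the same limits when expressed on the coding scale, and 43 of them (55.1%) were lowest in the medial section, against 2.45% of the coding transcripts. Their median steps were -1.83 and 0.81. None of the 78 rose or fell in order. The share of estimated counts on coding targets moved alongside, at 89.0% (distal), 95.5% (medial) and 94.5% (proximal), and its part in this pattern was not tested.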

How the results depend on the processing

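The number of transcripts that changed in order stayed below the number that broke between distal and medial under each of the 15 alternatives, 2 of which (centred steps and a length of at least 1000 bases) were chosen after seeing the data. Ordered transcripts made up between 0.0508% (2-fold step) and 3.15% (at least 1 TPM in any section) of those followed. TMM scaling gave 1353 breaks up and 525 down between distal and medial, 70 up between medial and proximal, 127 peaks and 159 troughs; median-of-ratios size factors gave 1306, 537, 70 and 123 for the first 4. The deposited TPM gave 7 fallers, 2573 breaks up, 256 down, 311 peaks and 48 troughs. Centred steps gave 812, 826, 121 and 154. A pseudocount of 0.1 gave 37 fallers, and a pseudocount of 5 gave 9 risers, 9 fallers, 44 breaks down between medial and proximal and 104 troughs. A mean of at least 3 TPM gave 34 risers, 62 fallers, 79 and 142 breaks up and down between medial and proximal, 122 peaks and 425 troughs, and a mean of at least 30 gave 7 risers, 4 fallers, 282 and 496 breaks at the first step, 17 and 18 at the second, and 73 troughs. With at least 1 TPM in any section there were 346 risers, 606 fallers, 1598 and 4268 breaks at the first step, 958 and 846 at the second, 1756 peaks and 2059 troughs. A 2-fold step left 3 risers, 2 fallers, 103 and 420 breaks at the first step, 4 and 16 at the second, 8 peaks and 30 troughs. A flat limit of 1.1-fold left 231 and 620 breaks at the first step and 16 and 26 at the second. Transcripts of at least 1000 bases gave 193 breaks up at the first step, 34 down at the second, 23 peaks and 150 troughs. The shallower distal library limits what can be seen at low levels, since 3 counts on a transcript with an effective length of 1000 bases are worth 1.33 coding TPM there, against 0.537 in the medial and 0.556 in the proximal library.

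For the 88 named transcripts, 528 of 698 values under other settings stayed within the counting interval, 160 moved beyond it in the same direction, and 10 reversed, all with the deposited TPM. The first step then became 0.12 for RAB6 (Ocbimv22028250m), 0.065 for CBWD1 (Ocbimv22005139m), 0.078 for SETMAR.37 (Ocbimv22039631m), 0.054 for PPM1D (Ocbimv22000320m), 0.064 for MBD5.1 (Ocbimv22010670m), 0.061 for stomatin-2 (Ocbimv22004401m), 0.069 for KMT5B (Ocbimv22030780m), 0.0087 for a CRAL-TRIO domain protein (Ocbimv22005989m), 0.075 for malic enzyme (Ocbimv22004207m) and 0.070 for SETD1B (Ocbimv22023965m). Of these 10, PPM1D, the CRAL-TRIO domain protein and malic enzyme kept their class under 1 of the 4 scalings, and the others under none. No paired analysis was possible because each position has 1 library. Leaving out a library was not run, because it would remove a position.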
